A study of Mus musculus with 4 samples.

Results

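The CGE cycling subventricular zone (SVZ) cells are dividing cells that already carried much Dcx, a microtubule-associated protein of newborn and migrating neurons, in a single-cell library of the caudal ganglionic eminence (CGE) of the mouse at E12.5 (the embryonic day). They were picked by 6 genes measured in the same cells. On a natural-log scale of 1 plus UMIs (unique molecular identifiers, counts of captured transcripts) per 10000, a cell had Dcx above 1.5, Mki67 and Ccnd2 above 0.5, Mapt and Rbfox3 below 0.5, and Nes at most 1.5. Of 3535 CGE cells kept after filters, 87 met all 6 conditions, 2.46% [1.98–3.03] with an exact Clopper-Pearson 95% interval. All 4 libraries together kept 18058 cells.

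The libraries used here are of wild-type C57BL/6J embryos, profiled by droplet sequencing. There was 1 library from each of the CGE, the lateral (LGE) and medial (MGE) ganglionic eminence and the dorsal cortex. The paper also reports libraries of a Nes reporter line and of a later age, which were not used. Tissue was pooled over embryos of both sexes, no allele or treatment set these libraries apart, and no region had a replicate library among them. No test between regions or classes was therefore made, cells of 1 library were not treated as replicates, and every interval below covers counting error only. The CGE library held 4301 barcodes and 31451467 UMIs, and no barcode of the 87 cells was found in another library. The cells held from 2826 to 32882 UMIs, with a median of 11084, and from 1686 to 6159 genes. The Mki67-negative high-Dcx cells they are set beside were shallower, at a median of 6679.5 UMIs, and the high-Nes cells alike, at 10778. Cells were dissociated, so the name SVZ stands for the gate and not for a measured position.

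The ganglionic eminences are the ventral swellings of the embryonic forebrain that give rise to inhibitory neurons. Radial glia divide at the ventricle, and their daughters move to the SVZ, where many divide again as intermediate progenitors before they leave the cell cycle and migrate. The CGE is the main source of the interneurons that carry the nuclear receptor Nr2f2 or the homeobox factor Prox1, while the MGE gives those that depend on Nkx2-1 and Lhx6, and the LGE gives striatal and olfactory bulb neurons.

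Most CGE cells passed the Dcx condition and few passed the next. Of 3535 cells, 2438 had Dcx above 1.5, and 264 of those, 10.8%, also had Mki67, a nuclear protein of cycling cells. In LGE 679 of 2275 high-Dcx cells had Mki67, 29.8%, and in MGE 507 of 2357, 21.5%. Ccnd2, a D-type cyclin, left 179 CGE cells, and Mapt, the tau protein of maturing axons, took the count to 93, a loss of almost as many cells as it kept. Rbfox3, a splicing factor of maturing neurons, left 90, and Nes, an intermediate filament protein of radial glia, left the 87. With the same gate 427 of 5125 LGE cells passed, 8.33% [7.59–9.12], and 253 of 5307 MGE cells, 4.77% [4.21–5.38], so the CGE share was the lowest of the 3 eminences and its interval met neither of the others. With every cell thinned to 3000 UMIs the shares were 1.06% [0.748–1.46] in CGE, 4.87% [4.29–5.50] in LGE and 2.08% [1.71–2.51] in MGE. With Dcx above 2.0 instead, CGE at 1.02% [0.714–1.41] no longer lay below MGE at 0.923% [0.684–1.22].

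**Figure D1:**
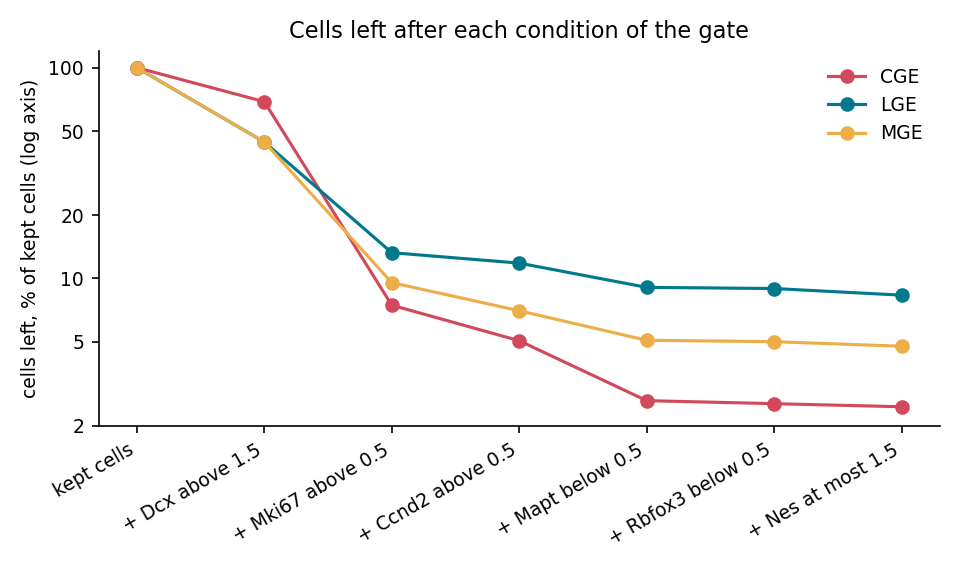
Cells left after each condition of the gate, added one after another from left to right, as a percentage of the kept cells of the CGE, LGE and MGE libraries (log axis). The CGE line starts highest after the Dcx condition and ends lowest, at 2.46%, against 8.33% in LGE and 4.77% in MGE.

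The values that chose the cells are given here as a description. The lowest Dcx value inside the gate was 1.51 and the highest outside, among 239 cells that failed on Dcx alone, was 1.50. For Mki67 the lowest value inside was 0.693, and the 137 cells that failed on it alone held none. For Mapt the highest value inside was 0.475 and the nearest outside 0.518, with 70 cells failing on it alone, while 24 cells failed only on Ccnd2, 3 only on Rbfox3 and 3 only on Nes. On this scale 1 UMI is enough in a cell of up to 15414 UMIs and too little in a deeper one, so depth entered the gate. Members held from 1 to 31 Mki67 UMIs with a median of 7, and 8 of them rested on 1 Mki67 UMI. In those 8 cells the genes of the G2 and mitosis list summed to 2906 CPM (counts per 1000000 UMIs) against 20171 CPM in the other 79, and the young neuron list to 10751 against 8424 CPM. The 5 members that a simulated-doublet score marked as doublets had 10912 CPM of the G2 and mitosis list against 19965 CPM in the other 82.

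The 70 cells kept out by Mapt alone held the dividing genes too. They had 14471 [14229–14716] CPM of the G2 and mitosis list and 3286 [3172–3404] CPM of the S phase list, against 19245 [18980.1–19513] and 3311 [3201–3423] CPM in the members. Their radial glia list stood higher, at 4218 [4088–4352] against 2605 [2508–2705] CPM, as did the young neuron list at 9939 [9739–10142] against 8549 [8373–8728] CPM. Of these 70 cells 14, or 20.0%, were predicted doublets, against 5 of 87 members, or 5.75%, and their Sst stood at 90.3 [72.1–112] CPM where the members had no UMI of it. The part of doublets in this difference was not tested.

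**Figure D2:**
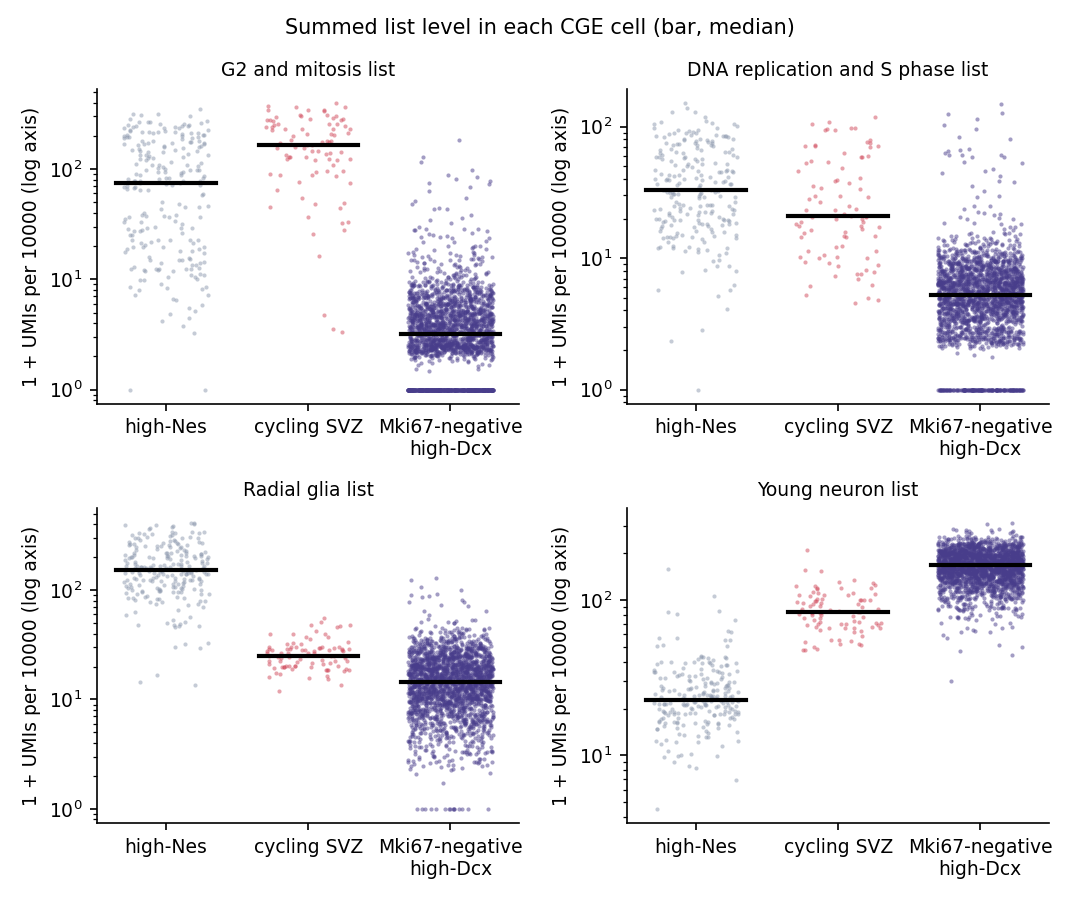
Summed level of 4 gene lists in each CGE cell (1 plus UMIs per 10000, log axis) for 225 high-Nes cells, the 87 cycling SVZ cells and 2160 Mki67-negative high-Dcx cells, with a bar at the median. The cycling SVZ cells hold the highest median of the G2 and mitosis list, 165 UMIs per 10000, and lie between the other classes for the radial glia and young neuron lists.

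Genes of division were high in nearly all of the cells. G2 and mitosis genes, which build the spindle, condense chromosomes and drive entry into mitosis, ran from 2.30 to 393 UMIs per 10000 in single members with a median of 165. All 87 members lay above the median of the CGE Mki67-negative high-Dcx cells for this list. S phase genes, which license and copy DNA, ran from 3.54 to 117 with a median of 19.9, and 84 of 87 lay above that class's median. Against the 95th percentile of the Mki67-negative high-Dcx cells, 64 members were above it for both lists, 20 for the G2 and mitosis list alone, none for the S phase list alone and 3 for neither. On a floor of 3 counts the 0 of 87 allows a share of up to 3.45%.

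Both lists were higher than in the Mki67-negative high-Dcx cells of CGE. Mki67 chose both classes, so the counts are a description. All 38 G2 and mitosis genes were at least 2-fold higher, with a median log2 ratio of 6.003, and so were 29 of 30 S phase genes, with a median of 2.56. These and the later counts are over every gene of a list with more than 3 UMIs in either sum, unless 50 CPM is named. Shares over all genes were taken at 50 or more CPM, so they are not on the same filter as these counts. Of all 4246 genes at 50 or more CPM in either class and outside the gate, 9.37% were at least 2-fold higher and 10.3% at least 2-fold lower, 19.7% in all. Kif2c, a kinesin that takes tubulin off microtubule ends, stood at 236 [208–268] CPM in the members and 1.05 [0.599–1.70] CPM in the Mki67-negative cells, a ratio of 225 [136–401]. Hmmr, a spindle assembly factor, had a ratio of 188 [129.5–282], Aspm, which organises spindle poles, 179 [113–298], and Top2a, the topoisomerase of chromosome condensation, 113 [98.5–130.4]. Ccnb1, the cyclin of mitotic entry, Dlgap5, Prc1 and Kif23, of the spindle and its midzone, were from 100.0 to 145 times as high. These 8 genes had the largest ratios of the comparison, each above 100 CPM in the members. Among S phase genes Rrm2, a subunit of ribonucleotide reductase, stood at 587 [541–635] against 26.1 [23.6–28.8] CPM, and the helicase subunit Mcm5 at 94.6 [76.9–115] against 15.3 [13.4–17.3] CPM.

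As genes of both lists were high together in these cells, the bases before the start of 4 of them are shown, from RefSeq on GRCm38.p6. For each list they are the 2 genes of highest ratio that held a match in a part of the window outside annotated exons. Capitals mark a match to TTTGAA, the core of the cell cycle homology region (CHR), in Kif2c and Top2a, and a match to TTCCCGC or TTGGCGC, E2F motifs, in Uhrf1 and Rrm1, each read on both strands. The Kif2c window is chr4:117178773-117179022 and the Top2a window chr11:99024190-99024439, both on the minus strand, and the Uhrf1 window is chr17:56303087-56303320 and the Rrm1 window chr7:102441445-102441694, both on the plus strand.
Kif2c: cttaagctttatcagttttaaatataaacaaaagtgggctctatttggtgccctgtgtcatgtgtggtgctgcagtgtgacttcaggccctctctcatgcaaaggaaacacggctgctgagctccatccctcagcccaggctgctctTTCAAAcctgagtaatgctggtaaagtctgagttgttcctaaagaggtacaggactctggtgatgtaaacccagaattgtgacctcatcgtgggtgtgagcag
Top2a: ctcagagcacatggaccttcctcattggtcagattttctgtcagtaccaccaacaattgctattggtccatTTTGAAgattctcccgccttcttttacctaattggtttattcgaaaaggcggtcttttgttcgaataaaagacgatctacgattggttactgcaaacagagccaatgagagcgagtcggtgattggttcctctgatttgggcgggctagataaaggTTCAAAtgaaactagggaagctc
Uhrf1: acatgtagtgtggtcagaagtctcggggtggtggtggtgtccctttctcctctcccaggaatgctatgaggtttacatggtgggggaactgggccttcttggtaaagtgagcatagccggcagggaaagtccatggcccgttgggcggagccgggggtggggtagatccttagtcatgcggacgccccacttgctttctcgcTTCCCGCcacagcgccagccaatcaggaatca
Rrm1: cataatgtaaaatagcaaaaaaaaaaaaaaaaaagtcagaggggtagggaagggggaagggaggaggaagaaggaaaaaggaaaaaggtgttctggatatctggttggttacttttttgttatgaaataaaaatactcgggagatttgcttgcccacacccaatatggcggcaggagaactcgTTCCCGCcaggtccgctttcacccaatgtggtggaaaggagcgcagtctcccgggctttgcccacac
In Kif2c the last base of the match lay 98 bases before the RefSeq start. In Top2a the nearer of 2 matches lay 18 bases before the start, in Uhrf1 the match 42 bases and in Rrm1 61 bases. The GENCODE annotation puts the Kif2c start at 117182639, so the Kif2c window shown lies inside the GENCODE gene. The windows of Top2a, Uhrf1 and Rrm1 adjoin their GENCODE starts. The shares below use the RefSeq starts. Of the 38 G2 and mitosis genes 34 had a RefSeq promoter, and TTTGAA was in the 250 bases before the start of 10 of the 34, 29.4% [15.1–47.5], against 18.3% of 27025 genes with a promoter. CCAAT, the NF-Y motif, read on both strands and able to share at most 1 end base with TTTGAA, was in 25 of the 34, 73.5% [55.6–87.1], against 37.5% of all. An E2F motif was in 2 of the 34, 5.88%, against 6.45% of all. For the S phase list 23 of 30 genes had a promoter, fewer than 80%, so its shares are void and not given. A match of these letters is a description of the window and not a site.

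Against the high-Nes cells of CGE the balance of the 2 lists differed. The gate asked Mki67 of the members and not of the high-Nes cells, so these counts too are a description. All 37 G2 and mitosis genes at 50 or more CPM in either class were above a ratio of 1, 10 of them at least 2-fold higher, and the median log2 ratio was 0.78. S phase genes leaned the other way, with 7 of 26 at 50 or more CPM above a ratio of 1 and a median of -0.38. None of the 26 was at least 2-fold higher and 4 were at least 2-fold lower, not far from the share of all genes. In single cells 32 of the 87 members lay above the high-Nes median of the S phase list. Of 4185 genes tested in this comparison 6.31% were at least 2-fold higher and 9.3% at least 2-fold lower, 15.6% in all. Hmmr had the largest of the G2 and mitosis ratios at 2.58 [2.24–2.98], with 369 [333–408] CPM in the members and 143 [129–157] CPM in the high-Nes cells. Mcm3, a helicase subunit, stood at 113 [93.4–135] against 226 [209–244] CPM, and Ung, which removes uracil from DNA, at 11.5 [5.93–20.04] against 89.3 [78.6–101] CPM. With the high-Nes cells held to Mki67 above 0.5 the medians were 0.39 and -0.27, so both kept their sign among cycling cells.

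Cyclins and inhibitors of G1 differed between the classes too. Ccnd1, the D-type cyclin of radial glia, stood at 38.2 [27.3–52.1] CPM in the members, 306 [286–327] in the high-Nes cells and 22.5 [20.1–24.96] in the Mki67-negative high-Dcx cells. The inhibitor Cdkn2d was at its highest in the members, at 219.9 [192–250.2] CPM against 77.7 [67.8–88.6] and 63.6 [59.6–67.7]. Cdkn1c, an inhibitor of cells that leave the cycle, was at 47.8 [35.5–63.02] CPM, between 11.9 [8.24–16.6] and 113 [108–119]. Ccnd2 belongs to the gate and is no result within CGE.

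Radial glia genes were far lower in the members than in the high-Nes cells, and as a list higher than in the Mki67-negative cells. Nes, itself a gene of radial glia, and Dcx set both classes in opposite directions, so the counts against the high-Nes cells are a description. Of 22 such genes 20 were at least 2-fold lower than in the high-Nes cells and none was 2-fold higher, with a median log2 ratio of -3.21. At 50 or more CPM stood 21 of them in the high-Nes cells and 8 in the members. In single members this list ran from 10.9 to 55.1 UMIs per 10000 with a median of 24.1, and none of the 87 reached the high-Nes median of 151. Above the median of the Mki67-negative high-Dcx cells lay 85 of the 87, and the list summed to 2605 against 1570 CPM. Of 9 genes at 50 or more CPM in that comparison 3 were at least 2-fold higher, beside 9.37% of all genes. None was 2-fold lower, and the median log2 ratio was 0.59. Fabp7, a fatty acid binding protein of radial glia, stood at 219 [191–249] against 8379.9 [8274–8487] CPM, a ratio of 0.0261 [0.0228–0.0298]. Hes5, the Notch target that holds progenitors undifferentiated, stood at 24.9 [16.2–36.4] against 921 [886–957] CPM, and Hes1, of the same family, had 2 UMIs in the members. Sparc, a secreted matrix protein, had 3 UMIs and a ratio of 0.0120 [0.00248–0.0353], and the glutamate transporter Slc1a3 6 UMIs and 0.0243 [0.00890–0.0533].

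A few progenitor genes were less far apart. The factor Sox2 stood at 686 [637–739] CPM in the members, 842 [809–877] in the high-Nes cells and 669.8 [657–683] in the Mki67-negative high-Dcx cells. Notch1 and Sox9 lay between the classes, Notch1 at 161 [137–187] CPM against 382 [359.6–405] and 30.96 [28.2–33.9], and Sox9 at 149 [127–174] against 309.8 [289.7–331] and 49.4 [45.9–53.00]. Among the other genes named by the size of their ratio, Ptn, Wnt7b, Hmga2, Ephb1 and Ppp1r1a were lower in the members, from 0.00843 [0.000213–0.0473] for the phosphatase inhibitor Ppp1r1a to 0.0287 [0.0152–0.0493] for the growth factor Ptn.

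**Figure D3:**
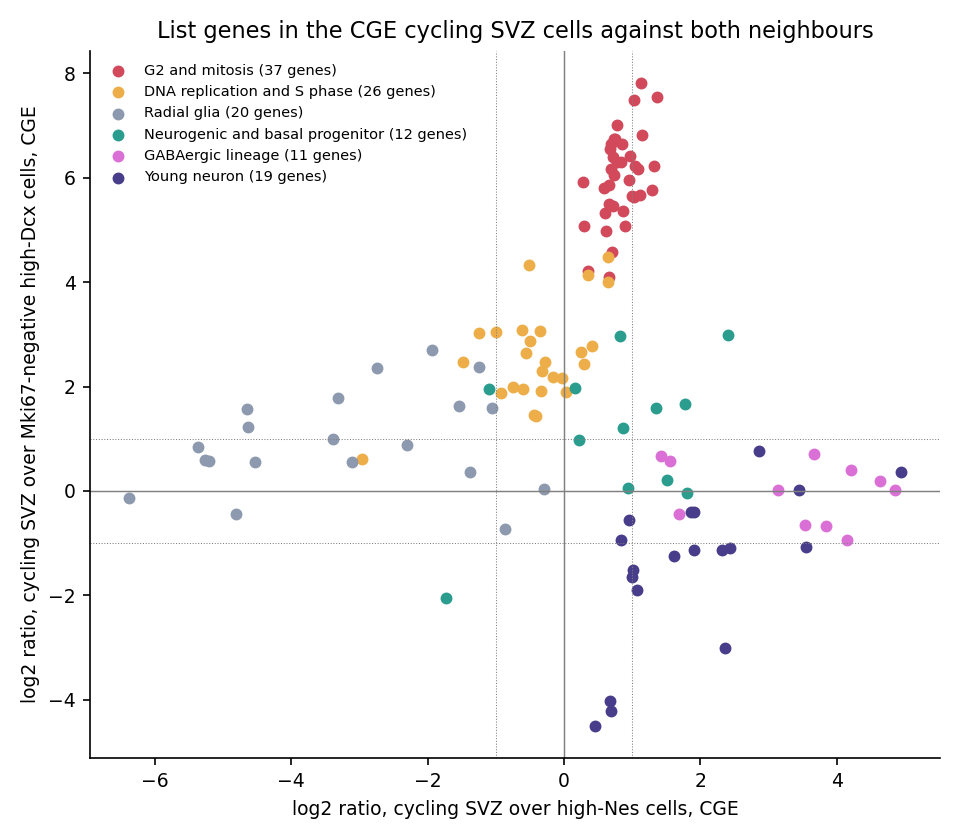
Log2 ratio of CGE cycling SVZ over high-Nes cells (x axis) against log2 ratio over Mki67-negative high-Dcx cells (y axis) for genes of 6 lists with at least 3 UMIs in each of the 3 classes, with dotted lines at 2-fold. G2 and mitosis genes lie at the top right, radial glia genes at the left, GABAergic genes at the right near 0 on the y axis, and young neuron genes mostly at the lower right. Both axes share the cycling SVZ cells, and the classes were set by Mki67, Dcx and Nes.

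Of the 14 genes of the neurogenic list, Insm1, Gadd45g, Dll1 and Dll3 stood higher in the members than in both neighbours. Insm1 (ENSMUSG00000068154.5, chromosome 2, 146221921–146225020 on GRCm38), a zinc finger factor of intermediate progenitors, was at 370.0 [334–409] CPM in the members, 70.01 [60.6–80.4] CPM in the high-Nes cells and 46.5 [43.1–50.02] CPM in the Mki67-negative high-Dcx cells. Gadd45g, induced as progenitors commit, stood at 249 [219–281] CPM against 140.0 and 31.6 CPM. The Notch ligands Dll1 and Dll3 followed the same course, Dll1 with 105 [86.4–127] CPM against 41.3 and 34.9 CPM, and Dll3 with 153 [130.2–179] against 44.8 and 48.5 CPM. The intervals of these 4 genes met neither neighbour. With cells thinned before the gate, which left 37 members, the log2 ratio of Dll1 to the high-Nes cells was -0.027.

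Other genes of this list took other courses. Btg2, an antiproliferative gene of committed progenitors, was below the high-Nes level at 119.5 [99.5–142] against 257 [239–277] CPM. Sox4 and Sox11, factors of early neuronal differentiation, were near the level of the Mki67-negative cells, with ratios of 1.15 [1.11–1.19] and 0.977 [0.952–1.002]. Of the list 12 genes stood at 50 or more CPM in each comparison. Against the high-Nes cells 5 of these were at least 2-fold higher and 2 lower, with a median log2 ratio of 0.90. Against the Mki67-negative cells 7 were higher and 1 lower, with a median of 1.40. The 2 genes of the list without a UMI in the members were not counted.

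GABAergic genes, of the inhibitory lineage, stood near the level of the Mki67-negative class. Of 12, 11 were at least 2-fold higher and 1 lower than in the high-Nes cells, with a median log2 ratio of 3.60, and none differed 2-fold from the Mki67-negative high-Dcx cells, with a median of 0.02. At 50 or more CPM stood 11 of them in the members and 4 in the high-Nes cells. Dlx5, a homeobox factor, stood at 477 [436–521] CPM against 25.9 [20.3–32.5] and 363 [354–373] CPM, and Sp9, a zinc finger factor, at 669 [621–721] against 52.5 [44.4–61.6] and 407 [397–417] CPM. Dlx1, Dlx2, Dlx5 and Sp9 had the higher levels in the members, at 1.48 [1.37–1.59], 1.59 [1.47–1.72], 1.31 [1.20–1.44] and 1.64 [1.52–1.78] times the Mki67-negative level. Against the 220 cells of that class without Mapt and Rbfox3, taken up below, these ratios were 1.08 [0.985–1.19], 1.05 [0.953–1.16], 0.922 [0.822–1.03] and 1.08 [0.980–1.20], each with an interval that held 1. Genes that make and load the transmitter lay below the level of the whole class. Gad2, a glutamate decarboxylase, stood at 0.633 [0.565–0.707] times that level, Gad1 at 0.627 [0.511–0.762] and the vesicular transporter Slc32a1 at 0.520 [0.431–0.622]. Beside these genes the largest ratios to the high-Nes cells were those of Mpped2, at 377 [340.4–416] against 12.3 [8.53–17.04] CPM, RP23-145L9.6, Dlx6os1, at 772 against 31.2 CPM, St18, the synaptic adhesion gene Nrxn3, at 624 [577–674] against 36.1 [29.4–43.7] CPM, and 4930506M07Rik. The counts of Dlx6 and Dlx6os1, which overlap, are uncertain because it is not stated whether reads were counted by strand.

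Young neuron genes lay between the classes. The gate set Dcx apart from the high-Nes cells and held Mapt and Rbfox3 low in the members, so these counts are a description. Of 20, 14 were at least 2-fold higher than in the high-Nes cells, with a median log2 ratio of 1.86, and of 21 in the other comparison 14 were at least 2-fold lower than in the Mki67-negative cells, with a median of -1.13. In single members the list ran from 46.4 to 209 UMIs per 10000 with a median of 82.9, against medians of 21.8 in the high-Nes and 166.5 in the Mki67-negative cells, and 1 of 87 lay above the latter. Tubb3, the neuronal tubulin, stood at 2019 [1934–2107] CPM against 374 [352–397] and 4314 [4281–4347] CPM. Stmn2, a regulator of growth cones, stood at 127 [106–151] CPM against 24.9 [19.4–31.3] and 1022 [1006–1038] CPM. Among the genes of lowest ratio were Ina, an intermediate filament protein of axons, Myt1l, a zinc finger factor of neurons, Islr2 and Syt4, at 0.0309 to 0.0536 times the Mki67-negative level, Syt4 having 4 UMIs in the members.

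Elavl4, an RNA-binding protein of neurons, took another course. It stood at 479 [438–523] CPM in the members, 66.2 [57.1–76.3] CPM in the high-Nes cells and 282 [273–290.3] CPM in the Mki67-negative cells, 1.70 [1.55–1.87] times the latter. In LGE the gated cells had 196 [183–210.0] CPM and in MGE 377 [354–400.2] CPM, and there too the level was above both neighbouring classes.

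The Mki67-negative high-Dcx class holds neurons of many ages, while the gate asked its cells to lack Mapt and Rbfox3. A closer neighbour is given by the 220 of those 2160 cells that also lacked both genes. Of 4052 genes tested against them, 7.13% were at least 2-fold higher and 3.04% lower. The 38 G2 and mitosis genes were again all at least 2-fold higher, with a median log2 ratio of 4.72, and 24 of 30 S phase genes were, with a median of 1.18. Insm1 was 2.36 [1.997–2.78] times and Gadd45g 2.09 [1.72–2.54] times their level, Dll1 1.85 [1.38–2.49] times and Dll3 1.21 [0.977–1.51] times. Elavl4, at 0.967 [0.861–1.08], no longer stood above them, and the neurogenic list had 3 of 12 genes at least 2-fold higher and a median of 0.22. Young neuron genes were still lower, with 4 of 21 at least 2-fold down and a median of -0.65, Stmn2 at 0.300 [0.247–0.362], Myt1l at 0.0921 [0.0467–0.165] and Ina at 0.203 [0.149–0.273] times.

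**Figure D4:**
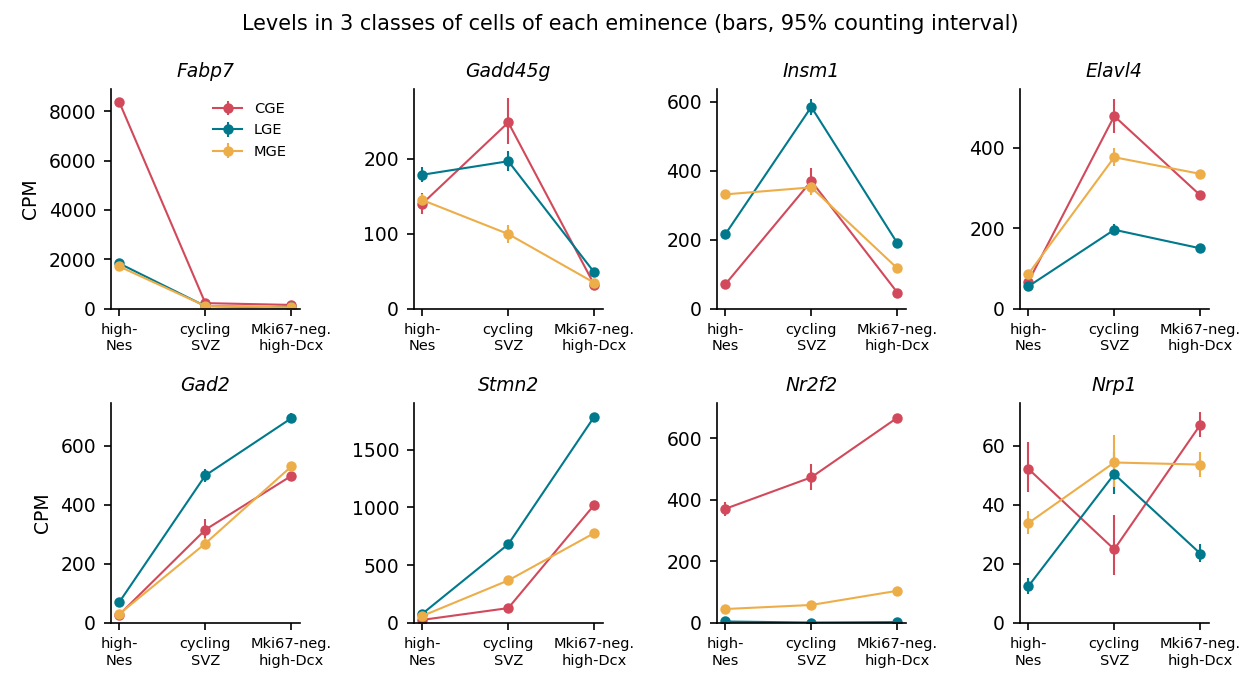
Level of 8 genes in CPM in the high-Nes, cycling SVZ and Mki67-negative high-Dcx cells of CGE, LGE and MGE, with bars for 95% counting intervals. In CGE Insm1 and Elavl4 are highest in the cycling SVZ cells, Gad2 and Stmn2 climb towards the Mki67-negative cells, and Nrp1 dips in the cycling SVZ cells where the other eminences rise from the high-Nes cells.

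Many genes of migration were lower than in the Mki67-negative cells. Of 15 migration receptors and ligands, 10 were at least 2-fold lower than in the Mki67-negative cells and none 2-fold higher, with a median log2 ratio of -1.54. At 50 or more CPM stood 9 of them in those cells and 3 in the members. Nrp2, a semaphorin receptor, had 4 UMIs and the neuregulin receptor Erbb4 4, while Epha4, an ephrin receptor, stood at 502 [459.9–547] CPM against 391 [381–401] CPM, but at 0.734 [0.659–0.817] times the level of the 220 cells without Mapt and Rbfox3. The neuropeptide Sst had no UMI in 1045983, against 469 [458–479.6] CPM in the Mki67-negative cells, which was at least 163-fold higher on a floor of 3 counts in the summed members. Cxcl14, a chemokine of CGE-derived interneurons, had none either, at least 28.8-fold below 82.7 CPM, and the glutamate receptor subunit Gria1 none, at least 22.9-fold below 65.7 CPM. For these 3 genes the members lay at the floor of detection. Clmp, a cell adhesion gene, and Nxph1, a neurexin ligand, had 1 and 4 UMIs. Ebf1, a factor of striatal and other projection neurons, had 1 UMI, a ratio of 0.00666 [0.000168–0.0371]. The paper takes Npy and Sst clusters in the CGE for interneurons that came from the MGE, and Ebf1 clusters for likely projection neurons. The part of origin in these ratios was not tested. To MGE cells of the gate 6 of 14 genes of the migration list were at least 2-fold lower and 3 higher, with a median of -0.76. To LGE cells 2 of 15 were lower and 5 higher, with a median of 0.18. Only 7 of the 14 and 4 of the 15 reached 50 CPM in either sum, so many of these calls rest on few UMIs. Of all genes at 50 or more CPM, 2.9% were past 2-fold to MGE and 3.01% to LGE. Nrp1, another semaphorin receptor, stood at 24.9 [16.2–36.4] CPM in the members, below 52.2 [44.1–61.2] in the high-Nes and 67.02 [62.98–71.3] in the Mki67-negative cells. Against the 220 cells without Mapt and Rbfox3 the migration list had a median of -0.85, with 6 of 15 genes lower and 1 higher, and those cells held 5 of the 7159 Sst UMIs of the Mki67-negative class.

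Nr2f2 was higher in the CGE cells than in those of both other eminences. Nr2f2 (ENSMUSG00000030551.14, chromosome 7, 70351944–70366735 on GRCm38), which was not in the gate, stood at 473 [432–517] CPM in the CGE cells, 57.9 [49.3–67.6] CPM in MGE cells of the same gate and, with 3 UMIs, 0.726 [0.150–2.12] CPM in LGE cells. The CGE level was 8.18 [6.83–9.83] times that of MGE and 652 [222–3171] times that of LGE. For the CGE list as a whole the direction to the high-Nes cells of CGE depended on the filter. Its median log2 ratio was 0.40 over genes with more than 3 UMIs. Over the 8 genes at 50 or more CPM it was -0.14, with 3 of them above a ratio of 1. To the Mki67-negative cells the medians were -0.14 and, at 50 or more CPM, -0.02. The list summed to 3009 CPM in the members, 3480 in the high-Nes and 3204 in the Mki67-negative cells. Across classes of CGE Nr2f2 went from 371 [349–394] CPM in high-Nes cells through the members to 667 [654–680.3] CPM in the Mki67-negative cells. Its relative Nr2f1 stood at 1441 [1369–1515] CPM against 37.8 [32.1–44.2] in LGE and 249 [231–268] in MGE, and within CGE it was flat, with ratios of 0.990 [0.932–1.05] to the high-Nes and 0.985 [0.935–1.04] to the Mki67-negative cells. Of the 3 marker genes of these cells, Dcx and Mki67 were fixed by the gate and Nr2f2 was free to vary.

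Prox1 stood higher in the members than in the whole of both neighbouring classes, at 218 [191–248] CPM against 35.4 [28.8–42.96] CPM in high-Nes and 153 [147–159] CPM in Mki67-negative cells. It was at 0.892 [0.752–1.06] times the level of the 220 cells without Mapt and Rbfox3, so not above them. It stood at 116 [104–129.6] CPM in the MGE and 30.3 [25.2–36.05] CPM in the LGE cells of the gate. Sp8, a zinc finger factor of CGE and dorsal LGE cells, stood at 70.7 [55.6–88.8] CPM in the members, 131 [121–143] in LGE and 4.34 [2.24–7.58] in MGE. Prox1 was thus highest in CGE, while Sp8 was higher in LGE. Pax6, a factor of dorsal and olfactory progenitors, stood at 81.3 [64.9–100.5] CPM in CGE, 62.9 [55.5–71.1] in LGE and, with 2 UMIs, 0.724 in MGE. Of 11 genes of the CGE list, 7 were at least 2-fold higher and Flrt2 at least 2-fold lower than in LGE, where 1.1% of 3818 genes at 50 or more CPM were higher and 1.91% lower, 3.01% in all. Against MGE 7 of 13 were higher and 1 lower, where 1.25% of 3827 genes were higher and 1.65% lower, 2.9% in all. Of the list genes counted, 7 reached 50 CPM in either sum of each comparison. At 20 or more CPM, 286 of 6659 genes were past 2-fold to LGE and 287 of 6748 to MGE. No share over all genes was taken at the filter of the list.

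Among single cells thinned to 3000 UMIs, which left out 1 member, Nr2f2 was found in 61.6% [50.5–71.9] of 86, and at their own depth in 87.4% of 87. In LGE cells of the gate it was found in 0.468% [0.0568–1.68] and in MGE cells in 14.7% [10.6–19.7]. Nr2f2 was thus read in most CGE cells and in few of the others, with no overlap of the intervals. Nr2f1 was found in 93.02% [85.4–97.4], Prox1 in 40.7% [30.2–51.8] and Sp8 in 22.1% [13.9–32.3]. Of the 86 cells 50 held both Nr2f2 and Nr2f1, 3 Nr2f2 alone, 30 Nr2f1 alone and 3 neither. Prox1 with Nr2f2 was found in 26, Nr2f2 without Prox1 in 27, Prox1 without Nr2f2 in 9 and neither in 24. Prox1 and Sp8, the genes of lower level, were read in fewer cells, and at this depth a cell without a UMI is not shown to lack the gene. Meis2, read as an LGE gene, was found with Nr2f2 in 34, without it in 23, and Nr2f2 without Meis2 in 19.

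Members varied in their regional lists as they did in their cycle lists. The CGE list ran from 2.64 to 63.9 UMIs per 10000 with a median of 28.8, the LGE list from 0 to 90.4 with a median of 7.55, and the MGE list from 0 to 18.2 with a median of 0.902. No UMI of the MGE list was found in 30 of the 87 members and none of the LGE list in 2.

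**Figure D5:**
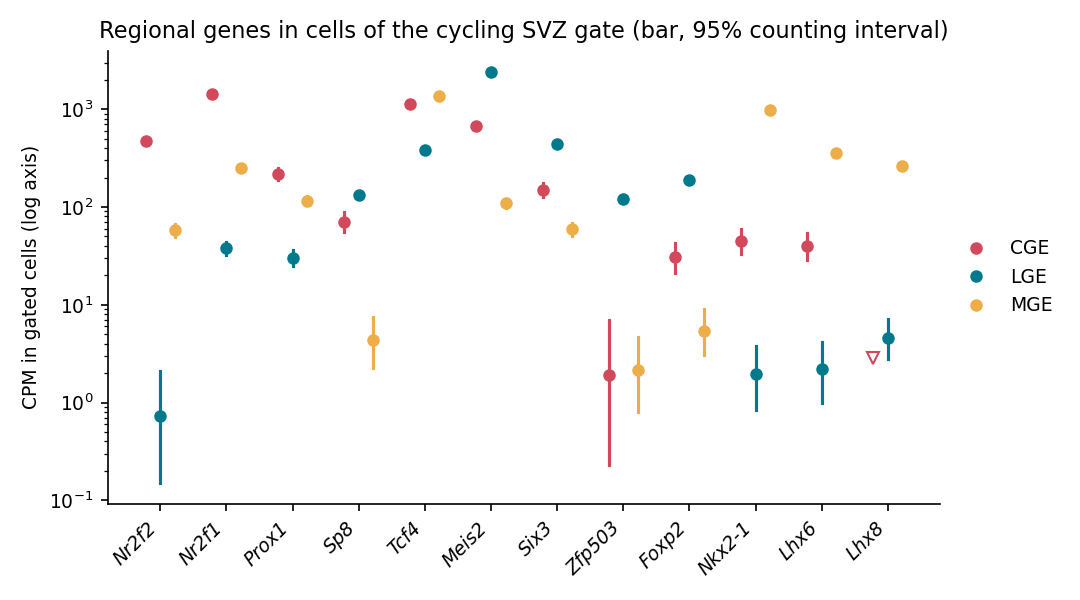
Level in CPM (log axis) of 12 regional genes in cells of the cycling SVZ gate of CGE, LGE and MGE, with bars for 95% counting intervals and an open triangle at 3 counts where no UMI was counted. Nr2f2 and Nr2f1 are highest in CGE, Meis2, Six3, Zfp503 and Foxp2 in LGE, and Nkx2-1, Lhx6 and Lhx8 in MGE.

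Genes of the LGE were lower in the members than in LGE cells of the gate. Of 12 in that list 11 were at least 2-fold lower and none 2-fold higher, with a median log2 ratio of -2.37, where 10 stood at 50 or more CPM in the LGE cells and 2 in the members. Meis2, a homeobox factor, stood at 673 [624–725] CPM against 2391 [2344–2439] CPM, and Six3 at 149 [127–174] against 439.8 [419.8–460.5] CPM. The members held Meis2 and Six3 at reduced but measurable levels. Zfp503, a zinc finger repressor, stood at 1.91 [0.232–6.91] against 120.3 [110.0–131] CPM and the POU factor Pou3f1 at 26.8 [17.8–38.7] against 334 [316–352] CPM. Meis2 was still 6.18 [5.39–7.10] times and Six3 2.51 [2.01–3.15] times the level of MGE cells of the gate, so for both the members lay between the other eminences.

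Of 9 genes of the MGE list 8 were at least 2-fold lower than in MGE cells of the gate, with a median log2 ratio of -3.08, where 7 stood at 50 or more CPM in the MGE cells and none in the members. Nkx2-1 stood at 44.9 [33.02–59.8] CPM against 975 [939–1012] CPM, Lhx6 at 40.2 [28.9–54.3] against 359 [337–382] CPM, and Lhx8, with no UMI, at least 91.95-fold below 264 CPM. Nkx2-1 was found in 8.14% [3.34–16.1] of thinned members, 6.73% of high-Nes and 5.82% of Mki67-negative CGE cells, whose median depths before thinning were 11084, 10778 and 6679.5 UMIs. The 3 shares did not differ beyond their counting intervals, and the 47 UMIs of Nkx2-1 lay in 11 of the 87 members. Lhx6 was found in 9.30% of members, 0.897% of high-Nes and 18.5% of Mki67-negative cells. Within CGE 6 of 10 genes of the MGE list were at least 2-fold lower and 1 higher than in the Mki67-negative cells, with a median of -1.33, and 3 of 9 were lower against the 220 cells without Mapt and Rbfox3, with a median of -0.55. The members had none of these genes at 50 CPM, so those that did so in the other class could only be lower.

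In genes of division the gated cells of the 3 eminences were close. The G2 and mitosis list had a median log2 ratio of 0.06 to LGE and 0.14 to MGE, and no gene of 38 differed 2-fold in either. All 26 S phase genes at 50 or more CPM were below a ratio of 1 against LGE, none by 2-fold, with a median of -0.31, and the list summed to 3311 CPM in the members against 4346 CPM in the LGE and 3162 CPM in the MGE cells. Against MGE 13 of 23 S phase genes at 50 or more CPM were above 1, with a median of 0.07. Ccnd2, which the gate needed above a floor in each library, stood at 859 [804–918] CPM in the members, 2531 [2483–2580.1] in LGE cells and 728 [697–761] in those of MGE.

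Neurogenic and neuronal genes differed more between the eminences. Insm1 was lower than in LGE, at 0.632 [0.567–0.704] times, and like MGE at 1.05 [0.933–1.18] times. Gadd45g was 2.50 [2.10–2.97] times, Dll1 1.94 [1.50–2.50] times and Hes6, a Hes inhibitor of committed progenitors, 1.90 [1.66–2.18] times the MGE level. These 3 genes were thus higher in the members than in MGE cells, but the neurogenic list as a whole was not. It summed to 13342 [13121–13565] CPM in the members, 10913 [10813–11014] in LGE and 15750 [15602–15898] in MGE cells. Its median log2 ratio was 0.55 to LGE and 0.13 to MGE. Tcf4, a partner of proneural factors, stood at 1143 [1079.5–1210.1] CPM against 381 [362–400.3] in LGE and 1374 [1331–1419] in MGE. Stmn2 was the lowest of the eminences in CGE, at 127 CPM against 680.4 in LGE and 367 in MGE, and was found in 25.6% of thinned members against 67.9% and 49.8%. As lists, young neuron genes had medians of 0.00 to LGE and 0.07 to MGE, and GABAergic genes of -0.09 and -0.25.

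By size of ratio, the genes of largest ratio to LGE beside Nr2f2, Nr2f1 and Prox1 were St18, Gm17750, Epha5, Nfib and Lmo1. St18, a zinc finger factor, stood at 207 [179.9–236] against 29.5 [24.5–35.3] CPM, and the ephrin receptor Epha5 at 374 [338–413] against 82.3 [73.8–91.5] CPM. The largest to MGE beside Nr2f2, Meis2, Nr2f1 and Epha5 were Ube2ql1, Pak3, Fam110b and Nol4, with 7.53 [5.47–10.5], 4.73 [3.97–5.64], 3.24 [2.60–4.04] and 3.12 [2.47–3.94] times the MGE level. Islr2, Stmn2, Zfhx3, Nefm, Foxp2 and Foxp4 were among the lowest to LGE, and Npy, Plcxd3, Mbip and Nav2 among the lowest to MGE. Lmo1, a LIM-only cofactor, was 3.63 [3.11–4.24] times the LGE and 0.597 [0.527–0.675] times the MGE level, so CGE lay between them.

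Markers of other cells were at or near 0 in the members. The endothelial, the pericyte and mesenchyme, and the microglia and macrophage lists each had 1 UMI in the 87 cells, 0.956 CPM, from 1 member each, with 5 of 6, 6 of 7 and 6 of 7 genes at 0. In the summed high-Nes cells the microglia and macrophage list was at 203 CPM and the pericyte and mesenchyme list at 58.1 CPM, and their part in that comparison was not tested. In MGE cells of the gate the microglia and macrophage list was at 54.99 CPM. Cortical excitatory genes had 3 UMIs, with 8 of 10 genes at 0. The 9 genes of the response to dissociation summed to 219 CPM in the members, 122 CPM in LGE and 155 CPM in MGE cells of the gate. Jun, an immediate early gene, stood at 130.0 [109–154] CPM, 3.32 [2.62–4.19] times the LGE level, and the part of that response in the comparisons was not tested.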

How the data were processed

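Single-cell suspensions of 4 forebrain regions of wild-type embryos were sequenced on the 10x Chromium platform, with 1 library per region. The deposited files hold raw UMI counts per gene and barcode, which the authors made with Cell Ranger (3.0.2 in the file headers, 3.0.0 in the submitters' processing notes) on mm10. The annotation release and the strand setting are not given in the sources used here. The labels describe sorted live cells and the methods describe wild-type cells as not sorted, which was not settled.

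Barcodes with more than 1500 genes, under 5% mitochondrial and under 1% Hbb- counts were kept, with no upper limit on genes. Libraries shared 4 to 15 barcodes in pairs, none of them a member's. Doublets were marked with a simulated-doublet nearest-neighbour score (30 components, 2000 genes, 40 neighbours, a rate of 0.8% per 1000 barcodes) and kept, except in one alternative. High-Nes cells had Nes above 1.5 and Dcx at most 1.5, and Mki67-negative high-Dcx cells had Dcx above 1.5, Mki67 below 0.5 and Nes at most 1.5. UMIs were summed over the cells of each class and given as CPM with exact Poisson 95% intervals, ratios with exact conditional intervals and shares with Clopper-Pearson intervals. All cover counting error only, and with 1 library per region there was no replicate and no test. Genes at 50 or more CPM in either sum were compared, leaving out the 6 gate genes, and a ratio of 2-fold was the mark used for counts. List counts took every gene with more than 3 UMIs in either sum, with sums under 3 set to 3 UMIs, a choice made after seeing the data. On that floor a gene without a UMI in the members can count as higher than in a class with a larger sum. Ratio intervals were tested on simulated Poisson counts only, the model that the intervals assume, so the test did not cover spread between cells.

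Named genes are those of 16 lists, plus the 8 of highest and 8 of lowest ratio in each of 4 comparisons. The ratio was ranked by the interval bound nearest 1 among genes at 100 or more CPM. Gate, mitochondrial and globin genes and Xist, Tsix, Ddx3y, Eif2s3y, Kdm5d and Uty were left out. Other X-linked genes, Pak3 among them, were kept, and the sex mix of each library is not given. The cells, the lists and the comparisons were chosen with earlier results of these data known. Of 43346 features, 42462 matched GENCODE M21 without the version number, which gave coordinates. Promoters came from RefSeq (GRCm38.p6), cut to the 250 bases before the start with annotated exon bases removed, and Hells was passed over because its match lay in an exon. Alternatives changed the gene limit, doublets, the Dcx, Nes and Mki67 thresholds, depth, the CPM filter, scaling, a pseudocount of 10 CPM, the weight of cells and the cells compared with. Python 3.11.15, numpy 2.4.6, scipy 1.17.1, pandas 2.3.3, scikit-learn 1.9.0 and matplotlib 3.10.9 were used. Some genes of these lists are not reported here.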

Additional observations from a re-analysis of the deposited data

Results flagged for a closer look

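Nrp1, a semaphorin receptor, was flagged because its ratio between the cycling SVZ and the high-Nes cells lay on opposite sides of 1 in the eminences. The ratio was 0.477 [0.301–0.726] in CGE, 4.10 [3.19–5.30] in LGE and 1.61 [1.31–1.97] in MGE, and the difference between them was not tested, with 1 library each.

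Cortex cells that pass the same gate were flagged as a signal outside the comparisons above. They were 18 of 4091 kept cortex cells, 0.440%, where a count of 0 would allow up to 0.0733%.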

How the results depend on the processing

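The share of CGE cells in the gate, 2.46%, became 3.85% with Dcx above 1.0, 1.02% with Dcx above 2.0, 1.30% with Nes below 0.5 and 1.06% with cells thinned to 3000 UMIs. Genes past 2-fold numbered 653 against high-Nes cells, 835 against Mki67-negative high-Dcx cells, 115 against LGE and 111 against MGE. A filter of 20 CPM made these 1321, 1547, 286 and 287, with more genes tested. Thinning, which left 37 members, made them 1123 against high-Nes cells, 543 against LGE and 618 against MGE. Dcx above 2.0, which left 36 members, made them 193 against LGE and 267 against MGE, and Mki67-negative cells without Mapt and Rbfox3 gave 412. Of 6877 values of 600 gene ratios under 13 alternatives, 5680 moved by less than their counting interval, 1193 moved further and 4 that were past 2-fold turned to the other side of 1. Among ratios under 2-fold 318 values changed side, 15 of them with Mki67-negative cells without Mapt and Rbfox3, among them Elavl4, Prox1, Epha4 and Dlx5. The log2 ratios past 2-fold that turned were Zfhx3 to MGE at -0.19 with Dcx above 2.0, Dll1 to high-Nes cells at -0.027 and Nfix to MGE at -0.18 when thinned, and Mfng at -0.19 against Mki67-negative cells without Mapt and Rbfox3. The cause was not tested. The medians over genes at 50 CPM were also followed. The median S phase ratio to LGE kept its sign in 11 of 11 alternatives, that of the G2 and mitosis list in 9 of 11, and to MGE these were 7 and 10 of 11. No paired analysis was possible because each region had 1 library, and for the same reason no replicate could be left out. With 1045983 UMIs in 87 members, a gene without a UMI could stand at up to 2.87 CPM.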
